A study of Homo sapiens with 6 samples.

Results

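The kinetochore and spindle checkpoint genes form a list of 35 genes, chosen by name from the 50868 genes of the deposited table. They code for checkpoint proteins, the RZZ complex and its adaptor, the NDC80, MIS12 and SKA complexes, and proteins of the centromere itself. All 35 had a row, and each had at least 159 reads in every library and at most 9617. RNA was sequenced from CUTLL1 cells, a line grown from a human leukaemia of T-cell precursors (T-cell acute lymphoblastic leukaemia). The shAURKB arm received a lentiviral short hairpin RNA against AURKB, and the shGFP arm received a control hairpin named for GFP, with 3 libraries in each arm. Both arms were infected and under puromycin for 48 h. The series title concerns Aurora B and MYC, so the knockdown serves here to ask how the mRNAs of the kinetochore machinery, where Aurora B acts, stood when its own mRNA was low. The data come from 1 cell line, and which part of AURKB the hairpin matches was not stated in the labels.

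The kinetochore is the protein assembly that joins a centromere to the microtubules of the mitotic spindle. An inner layer sits on chromatin marked by the histone variant CENP-A, and an outer layer, led by the NDC80 complex, binds microtubules. The spindle assembly checkpoint is a signal sent from kinetochores that have no microtubules attached, and it holds back anaphase. Aurora B is the kinase that loosens wrongly attached microtubules, mainly by phosphorylating outer kinetochore proteins. Many of these genes are transcribed mostly in late S phase, G2 and mitosis.

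Library totals ran from 10446722 to 11641019 counts with AURKB shRNA and from 10154187 to 11922979 counts with control shRNA. AURKB (ENSG00000178999, GRCh38 chromosome 17, 8204733 to 8210600) had 39.8, 43.9 and 36.0 CPM in the shAURKB libraries, against 100, 97.0 and 107 CPM in the shGFP libraries, where CPM is the read count relative to the TMM-scaled library size. Its log2 fold change was -1.35 ± 0.08 (SE), so the labels and the target went together (adjusted p = 2.54e-04, quasi-likelihood test of edgeR). Markers of the T lineage summed to 3969 to 4188 CPM in the shAURKB arm and 4082 to 4248 CPM in the shGFP arm. Of its 12 markers, 6 were called higher and none lower, against 12.5% higher and 10.9% lower of all 14818 tested genes. Of the 8296 tested genes at least as abundant as the lowest of the listed genes, 20.3% were higher and 11.1% lower. GATA3 was at 170, 178 and 172 CPM in shAURKB libraries, against 118, 115 and 118 CPM in shGFP libraries. TCF7 lay the other way, at 745, 370 and 772 CPM against 934, 957 and 991 CPM, without a call (edgeR adjusted p = 0.124). The part of the T-lineage changes in the results below was not tested. Of 11 fibroblast and epithelial markers, 4 (COL3A1, DCN, LUM and PDGFRB) had no read in any library. Their sum was 0.648 to 1.29 CPM in the shAURKB arm and 0.985 to 27.2 CPM in the shGFP arm. The highest value lay in shGFP replicate 1, so the calls of the listed genes and of further kinetochore genes are also given without that library. Overlap between the arms is given with all libraries. Of 6 myeloid markers, LYZ, MPO and FCGR3A were at 0 and the sum was 0.463 to 0.945 CPM in the shAURKB arm and 0.576 to 1.09 CPM in the shGFP arm. Of 5 B-cell markers, MS4A1 and PAX5 were at 0 and the sum was 22.2 to 27.4 CPM against 23.9 to 27.9 CPM.

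Most of the 35 genes stayed close to their control level. At an adjusted p below 0.05, 6 were lower with AURKB shRNA (KNTC1, CENPE, CENPK, NDC80, ZWINT and CENPP), 3 were higher (CENPW, SPDL1 and CENPA) and 26 were not called. Of all 14818 genes tested, 23.3% were called, 10.9% lower and 12.5% higher, and the 9 of 35 called here lie near that share. Among the 35, 17.1% were lower and 8.57% higher. With upper-quartile scaling 9 of the 35 were lower and 1 higher, where 38.8% of all calls were higher, against 53.4% with TMM. When each library was left out in turn, 5.71% to 14.3% of the 35 and 15.0% to 15.7% of all tested genes were called. The median log2 fold change was -0.04 over the 35 genes and -0.0042 over all tested genes. The log2 fold changes ran from -0.44 (CENPK) to 0.56 (CENPW), and none of the 35 had a fold change as large as 2, which 2.99% of all tested genes had. Within a log2 fold change of 0.2 in either direction were 65.7% of the 35 and 48.5% of all tested genes. Of the 8296 tested genes at least as abundant as the lowest of the 35, 31.5% were called, 0.579% had a fold change of 2 or more and 57.1% lay within 0.2. The median size of the log2 fold change was 0.14 for the 35 and 0.17 for those genes. The arms did not overlap for 17 of the 35 genes, 10 of them lower and 7 higher in every shAURKB library. That was a share of 48.6% against 42.6% of all tested genes (20.9% lower and 21.7% higher). BUB1, BUB3, TTK and CENPQ overlapped, but without shGFP replicate 1 they too would lie below the remaining controls. The share of all tested genes without that library was not computed.

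**Figure D1:**
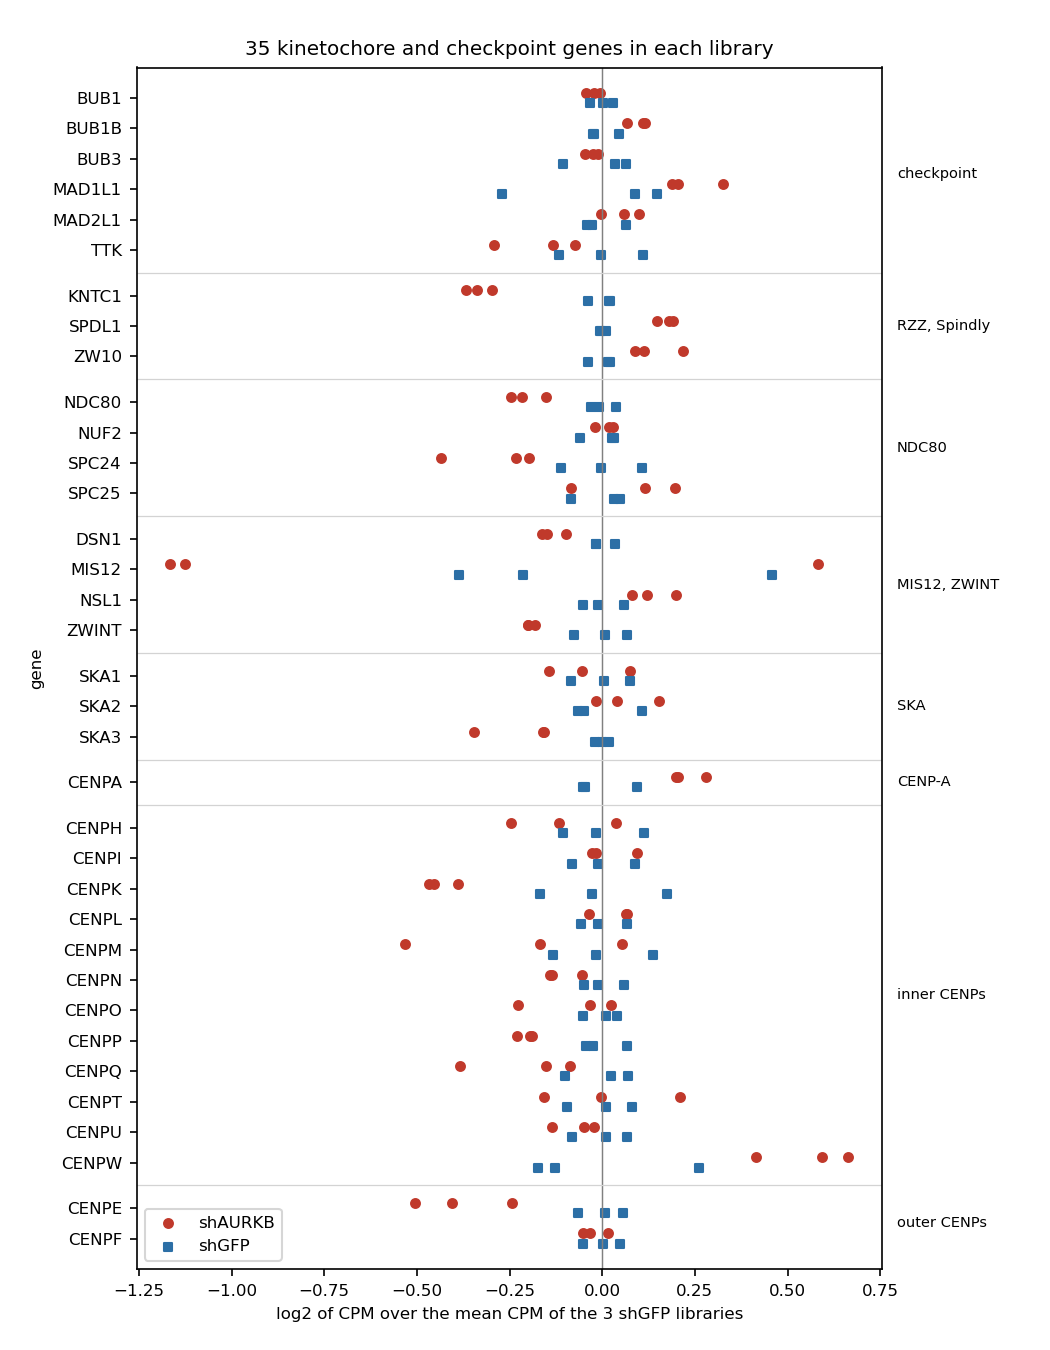
The log2 of each library's CPM over the mean CPM of the 3 shGFP libraries (x axis) is shown for 35 genes (y axis), ordered by role, with shAURKB libraries as red circles above shGFP libraries as blue squares. KNTC1, CENPE and CENPK lie left of every control, CENPW lies right of every control, and MIS12 is spread wide in both arms.

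All 35 genes together took 3713, 3692 and 3715 CPM in the shAURKB libraries, against 3901, 3869 and 3943 CPM in the shGFP libraries. The sums did not overlap. CENPF, the most abundant of them, gave 742 to 778 CPM in the shAURKB arm and 743 to 795 CPM in the shGFP arm. Much of the difference lay in KNTC1 (mean 257 CPM in the shAURKB arm, 324 in the shGFP arm) and CENPE (168 and 218 CPM). In every shAURKB library 10 of the 35 genes were lower and 7 were higher, so the sum does not describe each gene. These are RNA levels of whole cultures, so a changed share of cells in G2 or mitosis and changed RNA per such cell cannot be told apart.

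Among the 26 genes that were not called, differences above 1.5-fold lay outside the interval for most. For 25 of them, the 95% interval of the fold change, not adjusted for the number of genes, lay inside a 1.5-fold change in either direction. The exception was MIS12, with an interval of -1.48 to 0.84 on the log2 scale.

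**Figure D2:**
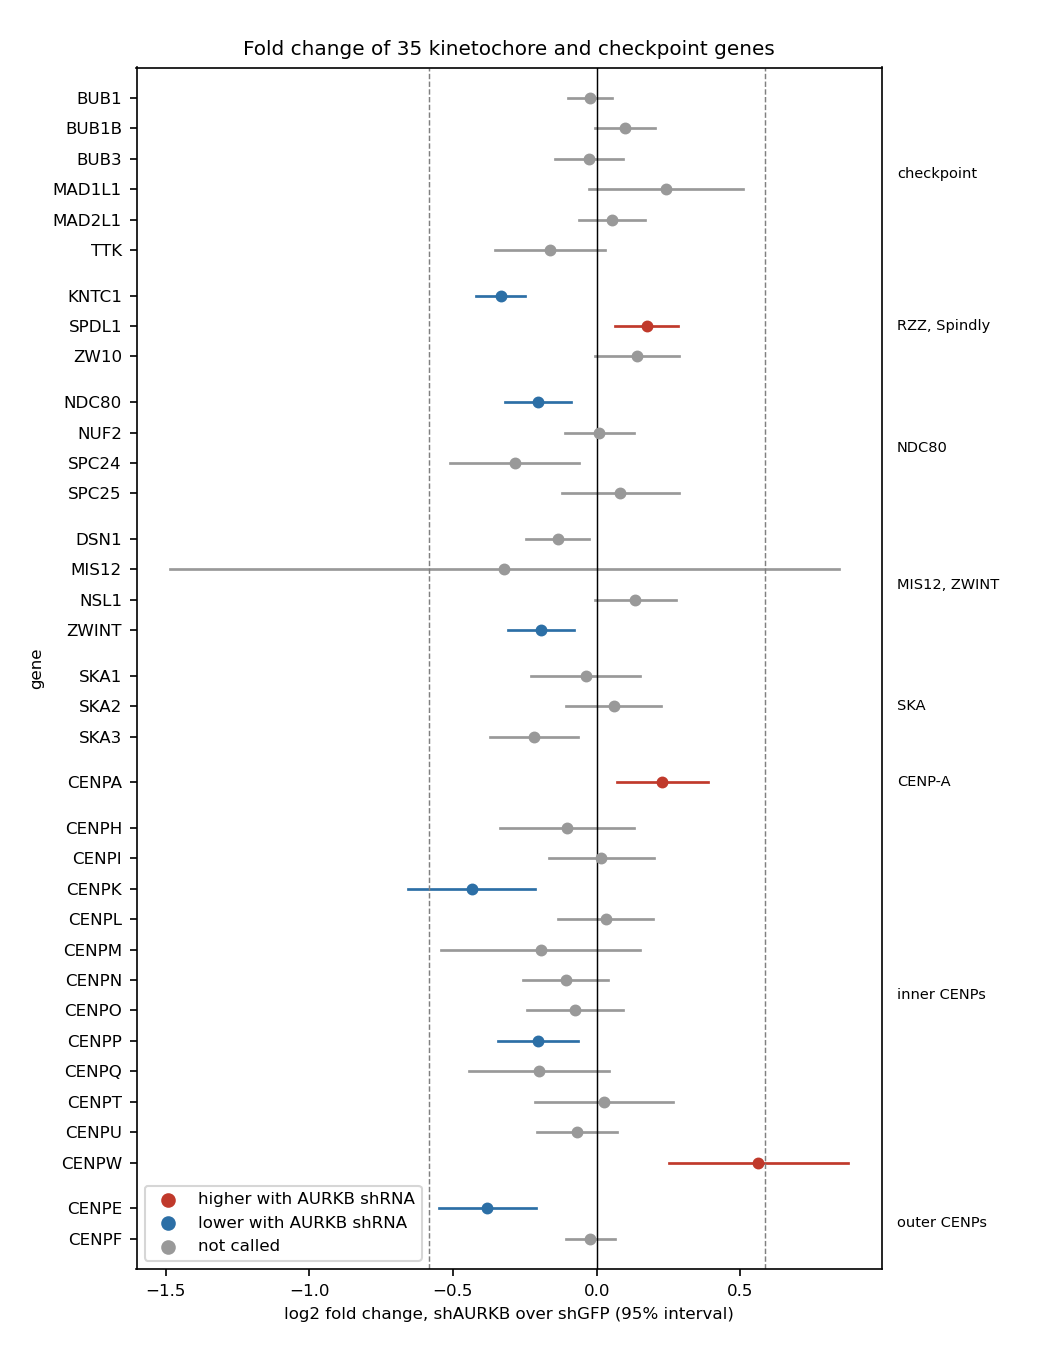
The log2 fold change of shAURKB over shGFP (x axis) with its 95% interval is shown for 35 genes (y axis), with called genes in red (higher) or blue (lower) and genes that were not called in grey. Dashed lines mark a 1.5-fold change, and among genes not called only the interval of MIS12 crosses them.

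The checkpoint proteins build the inhibitor of the anaphase-promoting complex. None of the 6 was called in the main test, where 23.3% of all tested genes were. None was called in any of the 16 alternative analyses (DESeq2 among them), where 7.48% to 23.4% of all tested genes were. The lowest of these shares is of 27786 genes, tested without a filter. None of the 6 had an unadjusted p below 0.05 (edgeR), which 5489 of the 14818 tested genes had. So few genes cannot set the group apart from these shares. BUB1, the kinase that brings the checkpoint to kinetochores, had 304, 296 and 301 CPM in shAURKB libraries, against 299, 312 and 305 CPM in shGFP libraries. The arms overlapped, and the 95% interval of its log2 fold change was -0.10 to 0.05. BUB3, which carries BUB1 to the kinetochore scaffold, was at 283 ± 3.61 CPM in the shAURKB arm and 289 ± 18.0 CPM in the shGFP arm (SD, n = 3 each). BUB1B codes for BUBR1, a direct inhibitor of the anaphase-promoting complex. It had the smallest p of the group, with 115, 118 and 119 CPM against 108, 108 and 113 CPM. Every shAURKB library was above every control, yet the difference of 0.10 ± 0.04 (SE, log2 scale) missed the threshold (edgeR adjusted p = 0.159). MAD2L1, the protein that changes shape to block CDC20, was at 155 ± 5.57 CPM in the shAURKB arm and 149 ± 6.01 CPM in the shGFP arm. MAD1L1, its anchor at kinetochores, had a log2 fold change of 0.24 ± 0.11 (edgeR adjusted p = 0.174), with 50.8 to 55.9 CPM in the shAURKB arm against 37.0 to 49.4 CPM in the shGFP arm, which did not overlap. TTK, the kinase MPS1 that starts the signal, had 82.3 to 95.7 CPM in the shAURKB arm and 93.0 to 109 CPM in the shGFP arm, which overlapped.

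The RZZ complex and Spindly recruit dynein and the MAD proteins to kinetochores without microtubules, and their genes went in both directions. KNTC1 (ENSG00000184445, chromosome 12, 122527246 to 122626396) codes for the RZZ subunit ROD. It had 256, 263 and 251 CPM in shAURKB libraries, against 328, 315 and 328 CPM in shGFP libraries. The arms lay clearly apart, with a level of 79.3% of control and a log2 fold change of -0.33 ± 0.04 (SE, edgeR adjusted p = 1.48e-03). SPDL1, which codes for the dynein adaptor Spindly (ENSG00000040275, chromosome 5, 169583634 to 169604778), had 76.3, 74.5 and 76.8 CPM against 66.9, 67.2 and 67.7 CPM. It was higher in every shAURKB library, with a log2 fold change of 0.17 ± 0.05 (edgeR adjusted p = 0.0359). That call was lost in 13 of 16 alternative analyses, including each one that left out a library (adjusted p 0.0318 to 0.11 over all 16). ZW10, the RZZ subunit that binds dynein partners, had 46.1, 50.5 and 46.9 CPM against 42.3, 44.1 and 43.9 CPM. Its arms did not overlap either, but it was not called (edgeR adjusted p = 0.146).

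The NDC80 complex is the main microtubule binder of the outer kinetochore, and 1 of its 4 genes was called (25%, near the 23.3% of all tested genes). NDC80 (ENSG00000080986, chromosome 18, 2571511 to 2616635), whose product Aurora B is known to phosphorylate, had 92.9, 88.8 and 87.0 CPM in shAURKB libraries, against 101, 106 and 103 CPM in shGFP libraries. It was lower in every shAURKB library, by a log2 fold change of -0.20 ± 0.05 (edgeR adjusted p = 0.025). That call was kept in 8 of the 16 alternatives (adjusted p 0.0107 to 0.0821) and was lost without shAURKB replicate 2 or 3 or without any 1 of the shGFP libraries. NUF2, which pairs with NDC80 in the microtubule-binding dimer, had 73.2, 72.6 and 70.8 CPM against 73.3, 68.9 and 73.0 CPM, and the arms overlapped. SPC24 and SPC25 form the other dimer, which docks on the inner layers. SPC24 had 24.7, 24.1 and 21.0 CPM against 26.2, 28.2 and 30.5 CPM. It was below every control, but its log2 fold change of -0.29 ± 0.09 did not pass (edgeR adjusted p = 0.0711). SPC25 overlapped, at 42.5 to 51.6 CPM in the shAURKB arm and 42.5 to 46.5 CPM in the shGFP arm.

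The MIS12 complex links the NDC80 complex to the inner kinetochore, and ZWINT binds the scaffold protein KNL1. ZWINT (ENSG00000122952, chromosome 10, 56357228 to 56361275) had 124, 124 and 126 CPM in shAURKB libraries, against 143, 149 and 135 CPM in shGFP libraries. It was lower in every shAURKB library, with a log2 fold change of -0.19 ± 0.05 (edgeR adjusted p = 0.0301). The call was kept in 8 of 16 alternatives (adjusted p 0.0146 to 0.0853) and was lost when any 1 library other than shGFP replicate 3 was left out. DSN1, the MIS12 subunit that Aurora B is known to phosphorylate, had 85.7, 84.9 and 88.8 CPM against 97.3, 93.9 and 93.9 CPM. It lay below every control and did not pass (log2 fold change -0.14 ± 0.05, edgeR adjusted p = 0.0769). NSL1, another subunit, lay above every control at 56.3 to 61.2 CPM in the shAURKB arm and 51.5 to 55.5 CPM in the shGFP arm, also without a call (edgeR adjusted p = 0.151).

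MIS12 itself stood out by its spread. It had 229, 200 and 691 reads in shAURKB libraries, or 20.05, 19.50 and 65.52 CPM, against 636, 345 and 456 reads in shGFP libraries, or 60.02, 33.48 and 37.68 CPM. Replicate 3 of the shAURKB arm was above all controls and the others were below all of them. The coefficient of variation was 75.4% with AURKB shRNA and 32.6% with control shRNA, where the highest for any other of the 35 genes was 19.9% and 17.3%. Across the 35 genes the median was 4.27% and 4.90%. The log2 fold change of -0.32 ± 0.49 was not called (edgeR adjusted p = 0.679), and without shAURKB replicate 3 it was -1.14 with an adjusted p of 0.0392. DERL2 starts inside MIS12 on the other strand and shares exon bases with it. That gene had 31.9, 27.2 and 33.6 CPM against 31.4, 29.9 and 29.2 CPM, with no such spread. What made MIS12 reads differ between replicates was not tested.

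The SKA complex tracks microtubule ends together with the NDC80 complex. None of its 3 genes was called, where edgeR called 23.3% of 14818 genes and DESeq2 9.9% of the 27786 genes with a read. At an unadjusted p below 0.05 (edgeR) stood 1 of the 3, beside 5489 of the 14818 tested genes. SKA3 had 74.9, 75.1 and 65.9 CPM in shAURKB libraries, against 82.6, 83.8 and 84.9 CPM in shGFP libraries. It was below every control, and its log2 fold change of -0.22 ± 0.06 just missed the threshold (edgeR adjusted p = 0.0501), with a call in 5 of 16 alternatives. SKA1 was at 36.9 to 42.9 CPM in the shAURKB arm and 38.4 to 42.9 CPM in the shGFP arm. SKA2 was at 97.6 to 110 CPM and 94.5 to 107 CPM, so both overlapped.

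CENPA codes for the histone H3 variant that marks centromeres (ENSG00000115163, chromosome 2, 26764289 to 26801067). It had 45.2, 47.8 and 45.3 CPM in shAURKB libraries, against 37.9, 38.0 and 42.0 CPM in shGFP libraries. It was higher in every shAURKB library, with a log2 fold change of 0.23 ± 0.07 (edgeR adjusted p = 0.049). The call was lost in 13 of 16 alternatives (adjusted p 0.0421 to 0.132), among them the omission of any 1 library other than shGFP replicate 3. SLC35F6 starts 5 bases from the annotated start of CENPA on the same strand and shares exon bases with it, so their reads cannot be fully told apart. SLC35F6 had 31.3, 35.9 and 37.1 CPM in shAURKB libraries, against 27.9, 12.2 and 13.6 CPM in shGFP libraries (log2 fold change 0.96 ± 0.30, edgeR adjusted p = 0.0573). The part of SLC35F6 in the CENPA value was not tested.

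The inner kinetochore proteins, the constitutive centromere-associated network, bind the CENP-A nucleosome and carry the outer layer, and 3 of their 12 genes were called (25%, near the 23.3% of all tested genes). CENPW (ENSG00000203760, chromosome 6, 126340174 to 126348875) codes for a small histone-fold protein that pairs with CENP-T. It had 33.7, 38.1 and 40.0 CPM in shAURKB libraries, against 23.1, 30.3 and 22.4 CPM in shGFP libraries. It rose in every shAURKB library, to 148% of control, with the largest fold change of the 35 genes (log2 fold change 0.56 ± 0.13, edgeR adjusted p = 0.0239). The call was lost without shGFP replicate 1 or 3, without shAURKB replicate 2 or 3, and on log2(FPKM + 1) with no filter (adjusted p 3.86e-03 to 0.0757 over the 16). CENPT itself overlapped, at 51.1, 59.3 and 46.0 CPM against 54.2, 51.6 and 48.0 CPM.

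CENPK (ENSG00000123219, chromosome 5, 65517766 to 65563171) belongs to the CENP-H, CENP-I and CENP-K group that holds the network together. It had 39.2, 37.2 and 37.5 CPM in shAURKB libraries, against 50.4, 57.9 and 45.7 CPM in shGFP libraries. It fell in every shAURKB library, to 74% of control, with a log2 fold change of -0.44 ± 0.09 (edgeR adjusted p = 0.0178). The call was lost without shAURKB replicate 2 or without shAURKB replicate 3 (adjusted p up to 0.061). CENPH and CENPI, its partners, overlapped, at 24.7 to 30.0 CPM against 27.2 to 31.6 CPM for CENPH and 25.4 to 27.6 CPM against 24.5 to 27.5 CPM for CENPI.

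CENPP (ENSG00000188312, chromosome 9, 92325484 to 92620533) belongs to the CENP-O, CENP-P, CENP-Q and CENP-U group, which receives the mitotic kinase PLK1. It had 41.7, 40.7 and 41.8 CPM in shAURKB libraries, against 46.2, 49.9 and 46.9 CPM in shGFP libraries. It was lower in every shAURKB library, with a log2 fold change of -0.20 ± 0.06 (edgeR adjusted p = 0.0466), a call kept in 6 of 16 alternatives (adjusted p 0.0229 to 0.191) and in none of those that left out a library. NOL8 starts on the other strand, within the first 153 bases of CENPP, and was called higher (log2 fold change 0.40 ± 0.06, edgeR adjusted p = 4.44e-03). The counts of NOL8 and CENPP thus went opposite ways. NOL8 and IPPK share exon bases with CENPP, and without a known strand setting such reads cannot be fully told apart. IPPK had a log2 fold change of 0.20 ± 0.07 and was not called (edgeR adjusted p = 0.102). CENPO (-0.08 ± 0.07), CENPQ (-0.20 ± 0.10) and CENPU (-0.07 ± 0.06) had log2 fold changes that were not called.

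CENPL (0.03 ± 0.07) and CENPN (-0.11 ± 0.06), whose products pair and read the CENP-A nucleosome, were not called on the log2 scale either. CENPN lay below every control, at 39.6 to 42.0 CPM in the shAURKB arm and 42.1 to 45.4 CPM in the shGFP arm. It shares exon bases with CMC2 on the other strand, which was called higher (log2 fold change 0.55 ± 0.08, edgeR adjusted p = 4.61e-03). CENPM, which codes for a protein like a small GTPase, had 64.27, 74.99 and 49.97 CPM against 79.37, 71.43 and 65.85 CPM, with overlap between the arms.

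CENP-E and CENP-F belong to the outermost fibrous layer. CENPE (ENSG00000138778, chromosome 4, 103105806 to 103198409) codes for the kinesin that carries chromosomes to the spindle equator and is a known substrate of Aurora kinases. It had 165, 154 and 184 CPM in shAURKB libraries, against 227, 208 and 219 CPM in shGFP libraries. It fell in every shAURKB library, to 76.8% of control (log2 fold change -0.38 ± 0.07, edgeR adjusted p = 0.0106). CENPF, the large protein that gathers dynein regulators, overlapped at 778, 742 and 752 CPM against 770, 743 and 795 CPM, with a 95% interval of -0.11 to 0.06 on the log2 scale.

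CENPE and KNTC1 were the 2 genes called in the main test and in all 16 alternatives. Their log2 fold changes ran from -0.45 to -0.32 and from -0.39 to -0.31 over the alternatives. CENPK kept its call in 14 and CENPW in 11. A further 4 genes (SKA3, DSN1, SPC24 and MIS12) were called in some alternatives and not in the main test. No called gene changed its sign in any alternative. Without shGFP replicate 1, KNTC1, CENPE and CENPK kept their calls and the other 6 lost them, so that 8.57% of the 35 and 15.4% of all tested genes were called. The log2 fold changes were then -0.22 for NDC80 (adjusted p 0.0543), -0.19 for ZWINT (adjusted p 0.0769), -0.22 for CENPP (adjusted p 0.0719), 0.50 for CENPW (adjusted p 0.0699), 0.20 for CENPA (adjusted p 0.127) and 0.17 for SPDL1 (adjusted p 0.0921), in the same directions as before (edgeR).

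**Figure D3:**
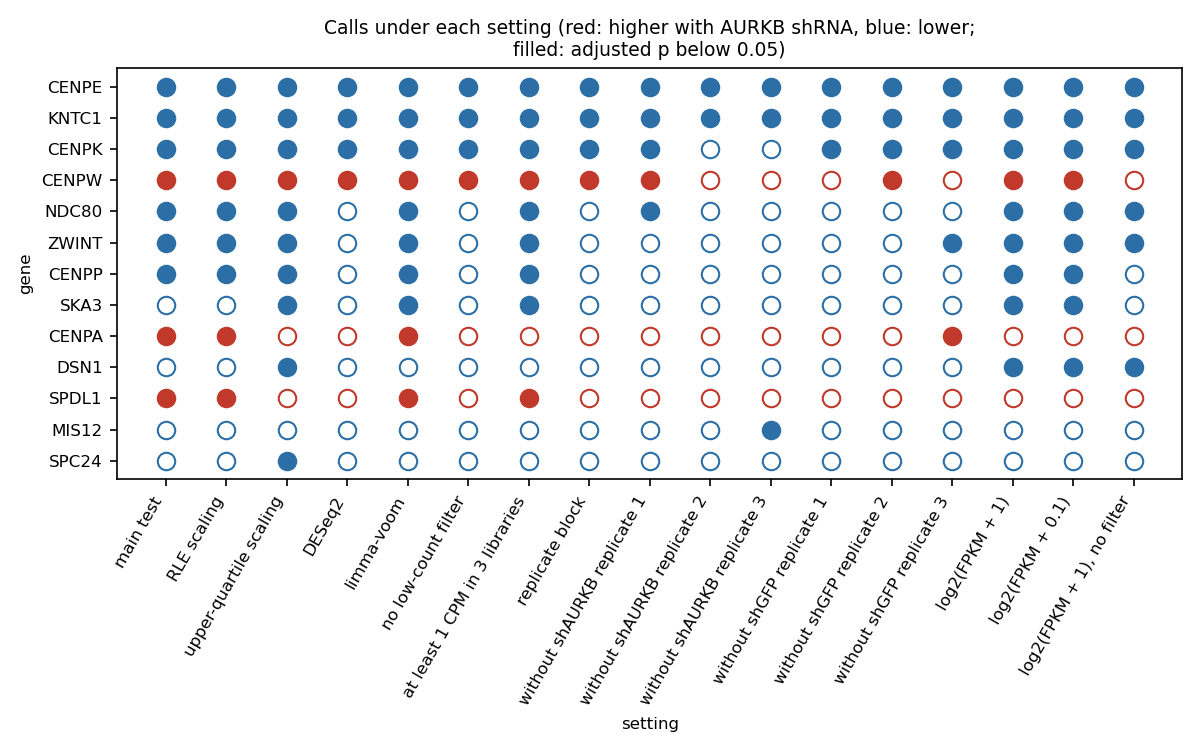
Each column is 1 analysis setting (x axis) and each row 1 of the 13 genes called in any setting (y axis). Filled circles mark an adjusted p below 0.05, red is higher and blue lower with AURKB shRNA, and CENPE and KNTC1 are filled in every column.

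Partner genes were also set against each other within each library, which no scaling between libraries can change. These pairs were chosen after the values were seen, so the ratios are a description without a test. KNTC1 had 5.55, 5.21 and 5.35 reads per read of ZW10 in shAURKB libraries, against 7.75, 7.15 and 7.48 in shGFP libraries. CENPE had 0.212, 0.207 and 0.245 reads per read of CENPF, against 0.294, 0.281 and 0.276. Both ratios were lower in every shAURKB library. CENPW had 0.659, 0.643 and 0.870 reads per read of CENPT, against 0.427, 0.586 and 0.466, which was higher in every shAURKB library. CENPK per CENPH was lower throughout, at 1.24 to 1.52 with AURKB shRNA and 1.59 to 2.00 with control shRNA. Within the NDC80 complex, NUF2 per NDC80 was 0.788 to 0.818 in the shAURKB arm and 0.651 to 0.725 in the shGFP arm. SPC25 per SPC24 was 1.98 to 2.14 in the shAURKB arm and 1.39 to 1.77 in the shGFP arm. SPDL1 per ZW10 overlapped, at 1.47 to 1.65 against 1.52 to 1.58.

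**Figure D4:**
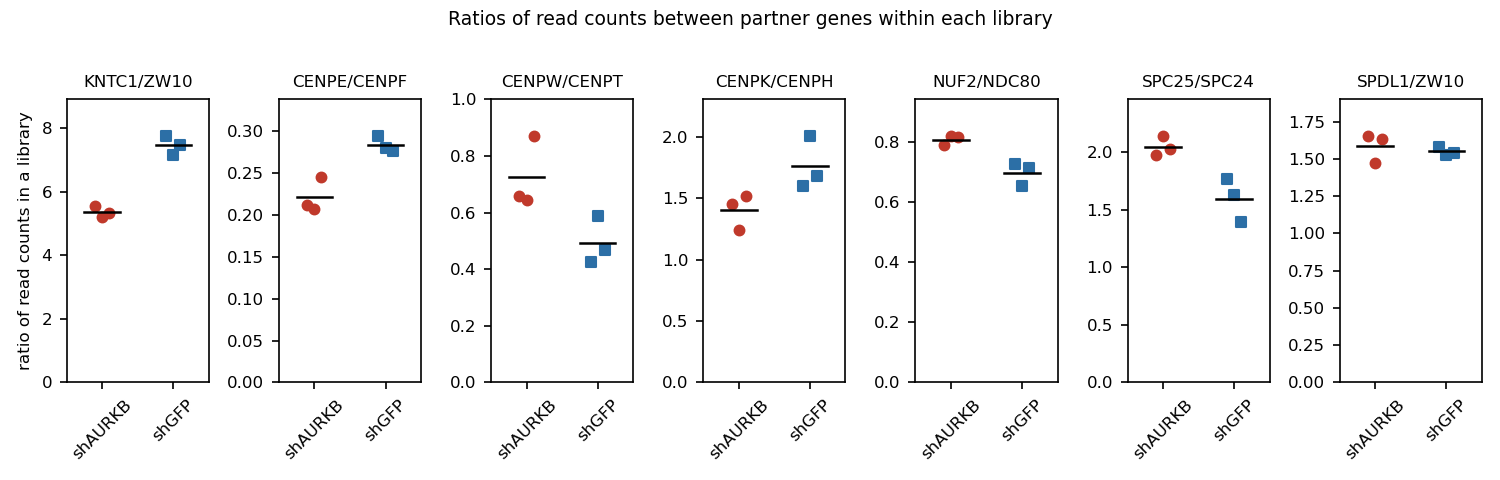
The ratio of read counts between partner genes (y axis, from 0) is shown in each shAURKB library (red circles) and each shGFP library (blue squares), with the arm mean as a bar, for 7 pairs. The arms do not overlap in 6 pairs, and SPDL1/ZW10 is the pair that overlaps.

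Levels between the genes were compared per kilobase of GENCODE exon sequence. CENPF (64.8 ± 1.59 CPM per kb with AURKB shRNA and 65.8 ± 2.22 with control shRNA), ZWINT (52.4 ± 0.374 and 59.9 ± 2.97) and BUB1 (49.8 ± 0.66 and 50.6 ± 1.08) were the most abundant (SD, n = 3 each). CENPP was the least abundant, at 4.23 CPM per kb with AURKB shRNA and 4.87 with control shRNA. The deposited FPKM gives another order, since it divides by lengths that are 1 to 3.69 times the GENCODE exon length. For MIS12, ZWINT and CENPT that length exceeds the whole span of the gene. ZWINT, second per GENCODE kilobase in the shGFP arm, was rank 13 by FPKM, and CENPT moved from rank 31 to 35. Between arms the length cancels, so fold changes do not depend on it. Over the 35 genes the log2 fold change had a Spearman's rho of -0.06 with abundance and -0.05 with exon length, as a description of genes that share the same libraries. Over all tested genes these were 0.29 and, for the 14730 with a GENCODE length, -0.06.

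Promoters are shown for some of the genes called in either direction. Many of the listed genes are known to carry a CCAAT box, bound by NF-Y, and a cell cycle homology region (CHR), bound by the DREAM and MuvB complexes. Promoter windows of RefSeq (GRCh38.p14), 250 bases before to 50 after the gene's start in RefSeq, matched 29 of the 35 genes. For CENPA that start lies inside the span given above (26764289 to 26801067). Its window is therefore not at the annotated start near SLC35F6. BUB3, CENPH, CENPL, CENPM, KNTC1 and TTK had no entry. The 250 bases before the start are printed 5′ to 3′ along the gene, with capitals for CCAAT and for TTTGAA or TTCGAA (CHR), on either strand, so that ATTGG and TTCAAA are matches on the other strand. The first 3 genes were lower and the last 3 higher with AURKB shRNA, and where RefSeq gives several starts the first window by coordinate is shown.
CENPE (chr4:103198344-103198593, minus strand): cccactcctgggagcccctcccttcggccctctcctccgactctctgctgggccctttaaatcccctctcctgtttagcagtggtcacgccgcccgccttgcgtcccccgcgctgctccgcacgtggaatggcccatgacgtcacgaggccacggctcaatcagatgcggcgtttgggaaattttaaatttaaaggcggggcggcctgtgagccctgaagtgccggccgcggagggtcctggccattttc
CENPK (chr5:65563169-65563418, minus strand): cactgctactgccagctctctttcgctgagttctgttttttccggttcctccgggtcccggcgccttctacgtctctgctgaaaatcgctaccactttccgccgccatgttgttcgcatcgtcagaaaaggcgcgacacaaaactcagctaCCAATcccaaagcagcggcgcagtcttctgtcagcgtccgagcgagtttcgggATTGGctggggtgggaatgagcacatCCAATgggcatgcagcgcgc
ZWINT (chr10:56361260-56361509, minus strand): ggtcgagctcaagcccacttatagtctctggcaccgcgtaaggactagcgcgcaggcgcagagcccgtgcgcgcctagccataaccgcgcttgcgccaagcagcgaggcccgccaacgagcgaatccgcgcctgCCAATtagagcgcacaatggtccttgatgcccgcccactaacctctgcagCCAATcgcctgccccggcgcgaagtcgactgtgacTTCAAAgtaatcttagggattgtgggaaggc
CENPA (chr2:26785806-26786055, plus strand): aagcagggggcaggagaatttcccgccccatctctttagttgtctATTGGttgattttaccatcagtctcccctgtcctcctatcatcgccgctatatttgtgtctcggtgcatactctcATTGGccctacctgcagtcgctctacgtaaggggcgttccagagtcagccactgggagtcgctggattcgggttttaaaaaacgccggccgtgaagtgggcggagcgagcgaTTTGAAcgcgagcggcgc
CENPW (chr6:126339865-126340114, plus strand): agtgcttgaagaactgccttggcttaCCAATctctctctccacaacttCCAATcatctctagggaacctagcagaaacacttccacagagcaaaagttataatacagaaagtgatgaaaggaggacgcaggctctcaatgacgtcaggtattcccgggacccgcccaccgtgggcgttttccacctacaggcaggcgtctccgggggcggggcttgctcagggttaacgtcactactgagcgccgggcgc
SPDL1 (chr5:169583523-169583772, plus strand): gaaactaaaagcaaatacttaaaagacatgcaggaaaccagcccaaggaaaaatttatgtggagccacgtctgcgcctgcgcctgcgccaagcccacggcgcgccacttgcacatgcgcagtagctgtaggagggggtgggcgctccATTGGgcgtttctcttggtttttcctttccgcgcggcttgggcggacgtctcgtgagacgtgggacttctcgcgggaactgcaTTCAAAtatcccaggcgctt

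A CHR match stood within the window of 16 of the 29 genes (55.2%), against 19.5% of all 27305 genes with an entry, and a CCAAT match in 17 (58.6%) against 39.7%. Both were present in 10 (34.5%) against 7.85%, where any window of a gene counts. All 3 genes called higher had both, and so did 1 of the 5 called lower with an entry (ZWINT) and 6 of the 21 not called. For SPDL1 this rests on the printed window, and its other window (chr5:169583830-169584079) had neither. CENPK had 3 CCAAT matches and no CHR match, and CENPE had neither. Of the genes called lower that are not printed, NDC80 had a CHR match without CCAAT and CENPP had CCAAT without a CHR match. In CENPW the CHR match began 17 bases after the start and so lies outside the printed stretch. A match shows letters and not binding, and the small numbers of called genes carry no test.

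Of the 35 genes, 11 start head to head with another tested coding gene within 1000 bases. The neighbour was called in 2 of these pairs, NOL8 beside CENPP and TATDN3 beside NSL1. TATDN3 was lower by a log2 fold change of -0.40 ± 0.11 (edgeR adjusted p = 0.0358), while NSL1 was at 0.13 ± 0.06. PPWD1 beside CENPK had a log2 fold change of 0.17 ± 0.07 and was not called (edgeR adjusted p = 0.12), where CENPK was lower. The neighbour's sign was opposite to that of the listed gene in 7 of the 11 pairs. Exons of 10 of the 35 genes shared bases with another tested gene.

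A further 39 genes of the kinetochore, centromere and checkpoint, all tested, were read from the same fit. Of these, 9 rose and 9 fell, a share of 46.2% against 23.3% of all tested genes and 31.5% of the 8296 more abundant ones (median log2 fold change 0.11). The list holds the target, whose fall the design fixes, and was chosen with earlier results of these data known. Its share is therefore a description and not a test. Without shGFP replicate 1, 7 were higher and 6 lower, a share of 33.3% against 15.4%. The arms did not overlap in 23, a share of 59.0% against 42.6% of all tested genes and 51.1% of the 8296 more abundant ones. Besides AURKB, the named genes were NUDC, a dynein regulator (log2 fold change 0.58 ± 0.04, edgeR adjusted p = 2.52e-04), and STRA13, which codes for CENP-X (0.50 ± 0.12, adjusted p = 0.0229). CDC20, the activator that the checkpoint blocks, was also higher, with a log2 fold change of 0.44 ± 0.04 (edgeR adjusted p = 6.81e-04). USP44, a deubiquitinase of the checkpoint, was lower, with a log2 fold change of -0.43 ± 0.08 (edgeR adjusted p = 8.59e-03).

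A further 4 genes of this list were chosen after their values were seen. CENPC, which bridges CENP-A nucleosomes and the MIS12 complex, had a log2 fold change of -0.43 ± 0.07 (edgeR adjusted p = 7.22e-03). CASC5, which codes for the scaffold KNL1, had one of -0.37 ± 0.09 (edgeR adjusted p = 0.0313). TRIP13, the ATPase that takes apart checkpoint complexes, had a log2 fold change of 0.40 ± 0.05 (edgeR adjusted p = 3.40e-03). HJURP, the chaperone that loads CENP-A, had one of 0.66 ± 0.39 and was not called (edgeR adjusted p = 0.262).

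**Figure D5:**
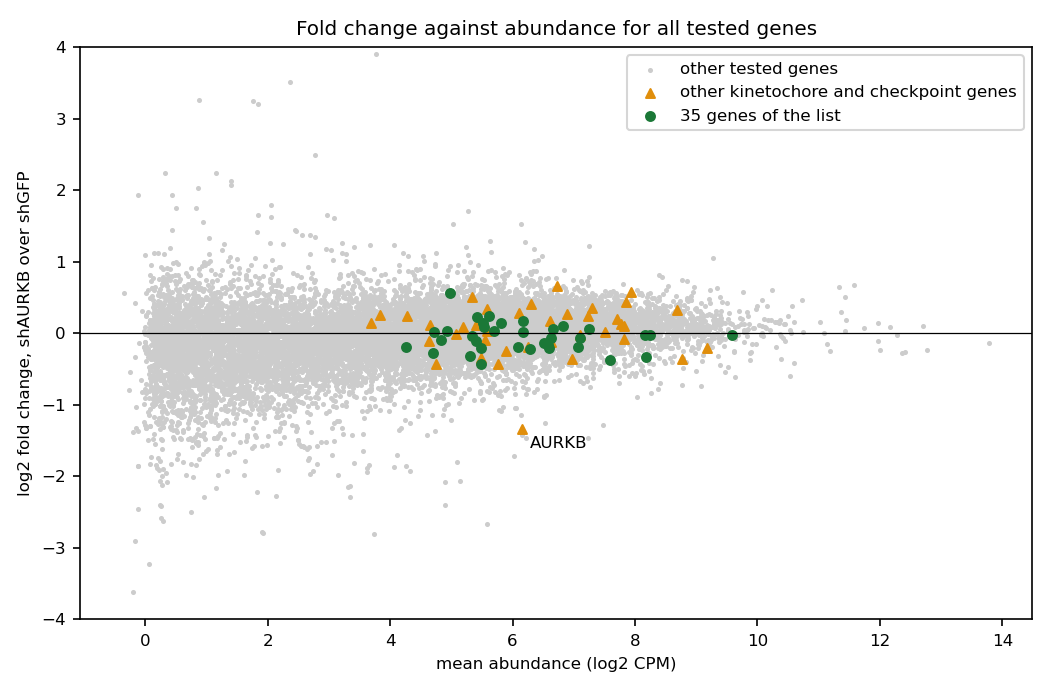
The log2 fold change of shAURKB over shGFP (y axis) is plotted against mean abundance in log2 CPM (x axis) for all tested genes in grey, 4 of which lie beyond the axis limits of 4. The 35 genes (green circles) stay between -0.44 and 0.56, and AURKB is the lowest of the other kinetochore and checkpoint genes (orange triangles).

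Lists of neighbouring processes give the context. Of 34 genes of mitotic entry and exit, 10 rose and 2 fell, or 35.3% against 23.3% of all tested genes and 31.5% of the 8296 more abundant ones (median log2 fold change 0.04), led by CCNB1, cyclin B1 (0.42 ± 0.05, edgeR adjusted p = 1.76e-03), and UBE2C, a ubiquitin-conjugating enzyme of the anaphase-promoting complex (0.39 ± 0.06). Of 35 genes of replication licensing and forks, 3 rose and 1 fell, or 11.4% against the same shares (median log2 fold change 0.05), with POLE at -0.30 ± 0.04 and MCM10 at 0.26 ± 0.05. These lists too were chosen with earlier results of these data known, and the differences between them were not tested.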

How the data were processed

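RNA sequencing of 6 CUTLL1 cultures, 3 shAURKB and 3 shGFP, was grouped by sample title. Raw counts and FPKM per Ensembl gene were deposited by the authors. HISAT2 2.0.4, StringTie 1.3.0 and edgeR on GRCh38 are named per the submitters' processing notes, and no source used here gives their roles, the strand setting or the handling of multi-mapping reads. The deposited FPKM of the 35 genes equal counts divided by 1 length per gene and the library total.

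The filter of edgeR (filterByExpr, count of at least 10 and total of at least 15) kept 14818 genes, with all 35 listed ones, and TMM gave the scaling (factors 0.979 to 1.02). The quasi-likelihood test of edgeR 4.0.16 (R 4.3.3), two-sided and with arm as its term, set shAURKB against shGFP, and p-values were adjusted by Benjamini-Hochberg over the 14818 genes (called below 0.05). Every adjusted p is from this test unless another is named. Standard errors are the log2 fold change over the square root of F. Counts of libraries within an arm differed beyond sampling noise (chi-square over its degrees of freedom 6.33 to 7.27). The design text calls the samples biological replicates. The test was tried on simulated counts with known changes.

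Gene positions come from the deposited file, and all 35 were identical in GENCODE release 29, which gave strands, exons and neighbours. The listed genes and the other gene lists were chosen with earlier results of these data known. Full statistics go to each called gene, to the gene with the smallest p in a role group with none called, to the 5 called genes with the largest change in the wider kinetochore list, and to 2 called genes in each context list. The fit was repeated with DESeq2 1.42.0, limma-voom, other scalings (RLE, upper quartile), and limma-trend (limma 3.58.1) on log2(FPKM + 1) with at least 0.5 FPKM in 3 libraries, with a pseudocount of 0.1 and with no filter, with every gene that had a read, with genes of 1 CPM or more in 3 libraries, with replicate number as a block, and without each library. Intervals cover the spread between these libraries.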

Additional observations from a re-analysis of the deposited data

How the results depend on the processing

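The count of listed genes called higher, 3 in the main test, was 1 with upper-quartile scaling, DESeq2, no low-count filter, the replicate block, log2(FPKM + 1) and log2(FPKM + 0.1), and 0 with log2(FPKM + 1) and no filter. The count called lower, 6 in the main test, was 3 with DESeq2, no low-count filter and the replicate block. It was 9 with upper-quartile scaling, 8 with log2(FPKM + 1) and log2(FPKM + 0.1), and 7 with limma-voom and with at least 1 CPM in 3 libraries. Of the 35, 11.4% were called with DESeq2, no low-count filter and the replicate block, against 9.9%, 9.77% and 15.6% of all tested genes. Upper-quartile scaling gave 28.6% against 23.0%, and limma-voom 28.6% against 23.4%. At least 1 CPM in 3 libraries gave 25.7% against 23.4%. With log2(FPKM + 1) and log2(FPKM + 0.1) it was 25.7% against 19.7% and 19.3%, and with no filter 17.1% against 7.48%. Leaving out 1 library gave 0 to 1 higher and 2 to 4 lower, and without shGFP replicate 1 these were 0 and 3, or 8.57%, where 1294 genes higher and 1028 lower of 15071 tested came to 15.4%. AURKB kept its direction and call in all 16 alternatives. Without any low-count filter 27786 genes were tested, among them many with few reads. The cause of the lost calls was not tested for this or any other setting. Libraries with the same replicate number had deviations with correlations of -0.09, -0.03 and -0.04, and those with different numbers had -0.03 to 0.06. No shared deviation was seen, but such correlations cannot tell whether the cultures were prepared as pairs. The wider kinetochore list, 9 higher and 9 lower, held 7 to 10 higher and 6 to 10 lower over the alternatives. That was 33.3% to 46.2% of the list, against 7.48% to 23.4% of all tested genes. Upper-quartile scaling lowered the median of all genes to -0.06 (log2), against -0.0042 with TMM.

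Genes with estimates near 0 changed sign, 8 in all and none of them called. With upper-quartile scaling the log2 fold changes were -0.0375 for CENPI, -0.022 for CENPL, -0.0298 for CENPT, -0.0447 for NUF2 and -0.00156 for MAD2L1. With log2(FPKM + 1), with or without the filter, they were -0.0279 for CENPI, -0.0154 for CENPL, -0.0226 for CENPT and -0.0386 for NUF2. With log2(FPKM + 0.1) they were -0.0327 for CENPI, -0.0187 for CENPL, -0.0319 for CENPT and -0.0414 for NUF2. Leaving out 1 library gave values of -0.077 to 0.00779 for BUB3, -0.0452 to 0.00387 for CENPF, -0.0208 to 0.0656 for CENPI, -0.0745 to 0.11 for CENPT, -0.0172 to 0.0266 for NUF2 and -0.095 to 0.0154 for SKA1.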
